A study of Mus musculus with 8 samples.

Results

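The BCL2 family, the caspases and the death receptors form the core machinery of apoptosis, and their expression was examined in AML12 mouse hepatocytes cultured with irisin. The 38 genes of this machinery were taken as every probe, other than array controls, whose accession maps to one of them in the RefSeq gene table. They accounted for 51 of 39429 probes and for 38 of the 21608 genes that could be named on the array. AML12 is 1 continuous line derived from hepatocytes of mice that carry a human transforming growth factor alpha transgene, so both groups shared that transgene and the same genetic background. The study compared 4 control samples with 4 samples of cells given 0.5 µg/ml irisin for 24 h, all in DMEM F-12 medium with fetal bovine serum. Irisin is a peptide hormone that is cut from the membrane protein FNDC5, and the comparison asks which genes respond to it in hepatocytes. One-color Agilent arrays measured the RNA of each sample. The labels do not say whether the 4 samples of a group were separate cultures, so the p-values below measure only the spread between these samples.

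Apoptosis can start at the mitochondrion or at the cell surface. In the mitochondrial route, BH3-only proteins relieve the block that BCL2-like survival proteins place on the pore formers BAX and BAK, cytochrome c leaks out, and APAF1 assembles into the apoptosome that activates caspase-9. In the receptor route, FAS or a TNF receptor recruits adaptor proteins that activate caspase-8, and hepatocytes are known as cells in which cleavage of BID links the receptor route to the mitochondrial one.

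Array values are log2 signals from which the 75th percentile of the same array was subtracted. The 75th percentile itself was 372 to 534 signal units on control arrays and 682 to 850 on irisin arrays, and the control and irisin arrays came from separate slides and scans. Slide, scan and treatment therefore cannot be told apart. limma was run on the 24091 probes that stood well above background throughout 1 group or both, and 172 were up-regulated and 2814 down-regulated by irisin treatment at 1.5-fold or more with an adjusted p under 0.05. This split depended on the scaling, with 670 up and 1021 down under quantile normalization, 699 and 926 under cyclic loess, 7817 and 362 with the spike-in probes as the reference and 14920 and 162 with no scaling. The median change of all 14307 tested genes was -0.06 on the log2 scale here, 0.51 with the spike-in reference and 0.67 with no scaling. Irisin replicate 2 stood apart and gave the highest or lowest of the 4 irisin values for 73.2% of all tested genes and for 30 of the 35 tested members, against 23.6% to 53.4% of genes for the other 7 arrays. Of 14 hepatocyte marker genes, 13 were well above background on all 8 arrays, as were 4 of 5 cholangiocyte, 3 of 7 leukocyte, 2 of 5 endothelial and 2 of 6 stellate cell markers. Counted by the probe of highest mean signal, 1 hepatocyte, 1 endothelial and 1 stellate cell marker were called down-regulated and no marker was called up-regulated. They were Asgr1, Pecam1 and Acta2, on dim probes with median signals of 23.4, 21.4 and 13.2 units in control and 24.5, 23.6 and 12.7 with irisin. Their changes were under 1.5-fold under quantile normalization (-0.35, -0.32 and -0.28) and -0.64, -0.64 and -0.65 after normexp background correction. A dimmer probe of the leukocyte marker Csf1r also passed both thresholds as lower (-0.74, adjusted p = 0.000179 by limma). The brighter Csf1r probe gave -0.49 (adjusted p = 0.00139 by limma), which is under 1.5-fold.

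Of the 38 genes, 35 passed the filter on dim probes and were represented by the tested probe with the highest mean signal, and none of these was called up-regulated or down-regulated by irisin treatment. Because RNA was taken from whole cultures, a change in the number of cells that express a gene and a change per cell cannot be told apart. The count of 0 up-regulated members compares with 0.531% of all tested genes, and the count of 0 down-regulated members with 10.2%, under limma with both thresholds. These shares depended on the scaling. The members stood at 0 and 0 under quantile normalization, beside 2.00% of genes higher and 3.82% lower. Under cyclic loess they stood at 0 and 0 beside 2.15% and 3.43%. The one-way ANOVA of the study's methods also called 0 in each direction, and at an unadjusted p under 0.05 limma gave 4 higher members (background 5.94% of genes) and 4 lower ones (background 23.6%). With the adjusted p alone as the criterion, 3 members were higher with irisin (background 2.65% of genes) and 1 was lower (background 17.9%). The 3 higher ones were Apaf1, Birc3 and Bcl2l2, and the lower one was Bik. Under quantile normalization the same 3 were higher and no member was lower, where 6.51% and 9.86% of genes were. Irisin values lay wholly above the control values for 3 members, where 4.14% of genes did so, and wholly below them for 2 members, where 19.6% did.

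The changes of the 35 tested members were small and centred on 0. They ranged from -0.54 to 0.48 on the log2 scale with a median of 0.0063, beside a median of -0.06 for all tested genes, and 18 were positive and 17 negative. The 95% interval of the change lay inside 1.5-fold in both directions for 33 of the 35 members (94.3%), and the same was true of 75.2% of all tested genes. The exceptions were Apaf1 and Bik. This held with the 75th percentile as the reference. With the spike-in probes as the reference 16 members passed both thresholds as higher, beside 33.4% of all tested genes, and with no scaling 29 did, beside 66.8%.

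**Figure D1:**
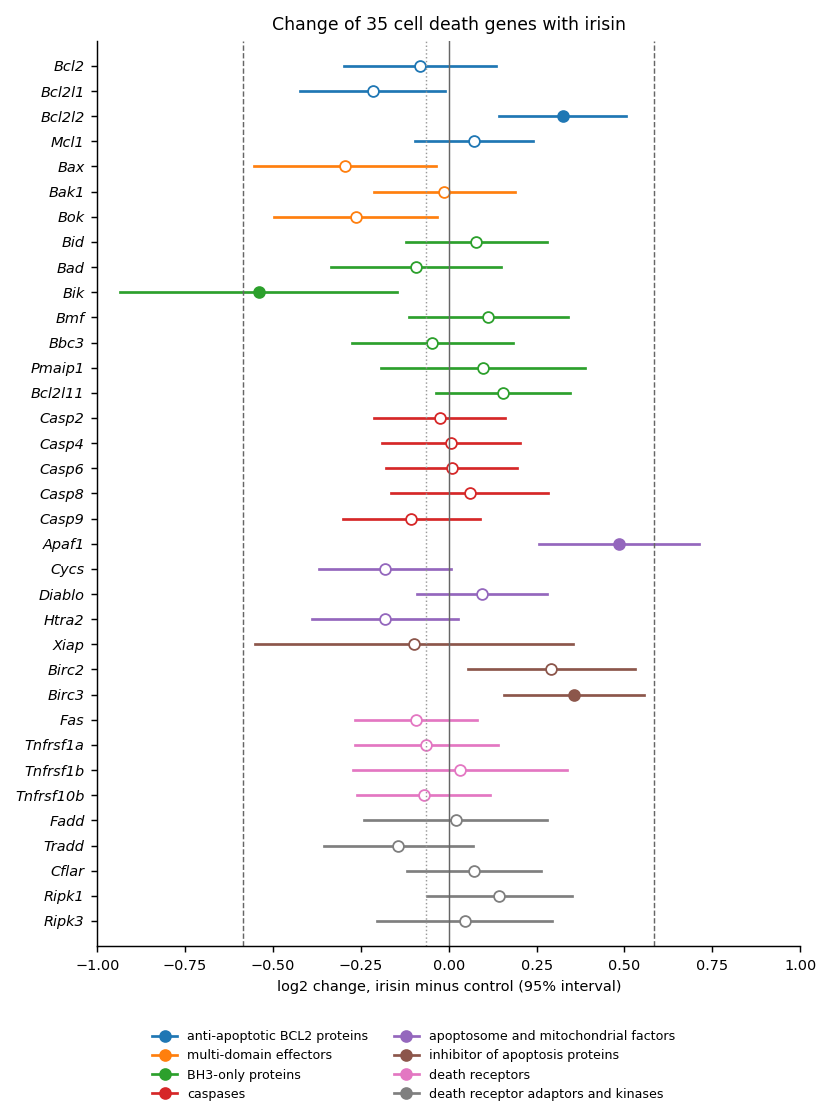
Log2 change between irisin and control for the 35 tested members, ordered by role, with the 95% interval from limma. Filled points mark an adjusted p under 0.05 (Apaf1, Birc3, Bcl2l2, Bik), dashed lines mark 1.5-fold and the dotted line marks the median of all tested genes at -0.06. The intervals of Apaf1 and Bik are the ones that cross a dashed line.

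The anti-apoptotic BCL2 proteins hold BAX and BAK in check. Bcl2l2, which encodes BCL-W, was measured by a pair of probes that carry the same transcript accession and gave opposite results. On the probe with the higher mean signal the control arrays gave 0.44, 0.46, 0.37 and 0.38, and the irisin arrays gave 0.83, 0.83, 0.64 and 0.65. Every irisin value was above every control value. The difference was 0.32 (SE 0.08, adjusted p = 0.0136 by limma, exact permutation p = 0.0286, the smallest that 4 against 4 arrays allow). On the second probe the control arrays gave -1.52, -1.36, -1.39 and -0.95 and the irisin arrays gave -2.08, -2.09, -2.06 and -2.23. Here every irisin value was below every control value, and the difference of -0.81 (SE 0.12, adjusted p = 0.000701 by limma) passed both thresholds, which makes it the one member probe that did. Both probes kept their sign and an adjusted p under 0.05 in each of the 8 fits that left out 1 array. Before scaling, the median signal of the second probe was 196 units in control and 185 with irisin. The second probe no longer differed when the spike-in probes set the scale (-0.23, adjusted p = 0.379 by limma) or with no scaling (-0.07, adjusted p = 0.729), against a lowest adjusted p of 3.79e-05 over its 21 alternatives. No probe sequence was at hand to place the pair on the transcripts of the gene, so a direction for Bcl2l2 as a whole cannot be given.

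Mcl1 encodes a short-lived survival protein that hepatocytes depend on. Its probe with the higher mean signal gave 3.63, 3.72, 3.81 and 3.77 on the control arrays and 3.77, 3.78, 3.83 and 3.84 on the irisin arrays. The groups overlapped and the difference was 0.07 (SE 0.08, adjusted p = 0.572 by limma). Its second probe gave 2.70, 2.55, 2.68 and 2.51 in control and 2.89, 2.77, 2.98 and 2.90 with irisin. These groups did not overlap, and the difference of 0.28 (SE 0.08, adjusted p = 0.0338 by limma) was under 1.5-fold. The adjusted p of this probe was under 0.05 in 15 of 21 alternatives and in 3 of the 8 fits without 1 array, and it ranged from 6.26e-05 to 0.101.

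Bcl2l1 encodes BCL-XL, a survival protein of the outer mitochondrial membrane. The control arrays gave 5.78, 5.73, 5.82 and 5.81 and the irisin arrays 5.56, 5.79, 5.43 and 5.50. Irisin replicate 2 lay among the control values and the other 3 irisin arrays lay below them. The difference was -0.22 (SE 0.09, adjusted p = 0.128 by limma), and without irisin replicate 2 it was -0.29 with an adjusted p of 0.0151, where leaving out any 1 array gave 0.0151 to 0.302. The sign turned under quantile normalization (0.04) and with the spike-in reference (0.36). A second Bcl2l1 probe gave -0.33 (SE 0.16, adjusted p = 0.184 by limma). Bcl2, the founding member of the family, showed -0.08 (95% interval -0.30 to 0.13).

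**Figure D2:**
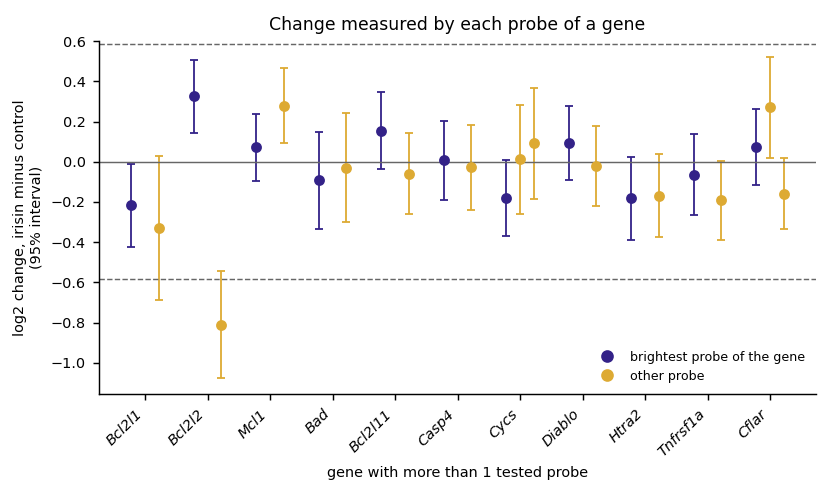
Log2 change between irisin and control for every tested probe of the 11 members with more than 1 probe, with the 95% interval from limma, the brightest probe of each gene in blue and the others in yellow. The Bcl2l2 probes lie at 0.32 and -0.81 on opposite sides of 0, and no other gene's probes differ by more than 0.43.

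Across the 11 members with several tested probes, the probes of Bcl2l2 differed by 1.13 on the log2 scale. In the other 10 genes the difference between the highest and lowest probe had a median of 0.12 and a maximum of 0.43, found in Cflar. The sign differed between probes in 6 of the 11 genes, Bcl2l2, Bcl2l11, Casp4, Cycs, Diablo and Cflar. In the last 5 no single probe had an adjusted p under 0.05.

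The multi-domain effectors form the pores through which cytochrome c leaves the mitochondrion. Bax gave 5.00, 4.77, 4.73 and 4.84 on the control arrays and 4.42, 4.86, 4.39 and 4.48 on the irisin arrays. As with Bcl2l1, irisin replicate 2 sat among the controls while the other 3 irisin arrays were below all of them. The difference was -0.30 (95% interval -0.55 to -0.04, adjusted p = 0.0965 by limma). Without irisin replicate 2 it was -0.40 with an adjusted p of 0.00691, and leaving out any 1 array gave adjusted p-values from 0.00691 to 0.238. Bok, a relative of BAX found in endoplasmic reticulum membranes, gave 0.37, 0.33, 0.26 and 0.15 in control and -0.16, 0.27, -0.02 and -0.04 with irisin. Its difference was -0.27 (SE 0.10, adjusted p = 0.0961 by limma), and -0.35 without irisin replicate 2 (adjusted p = 0.0120, range 0.0120 to 0.221 over the fits without 1 array). Both signs turned with the spike-in reference, to 0.28 for Bax and 0.31 for Bok. Bak1 showed -0.01 (95% interval -0.21 to 0.19). Without normexp background correction, all 3 effectors had a negative difference with the 75th percentile as the reference, and none passed the test. All 3 were positive with the spike-in reference (0.56 for Bak1). After normexp, with no array left out, Bax was at -0.30 (adjusted p = 0.0232 by limma) and Bok at -0.27 (adjusted p = 0.0311). Both were under 1.5-fold, and Bak1 was at 0.13. At the adjusted p alone, normexp gave 4.21% of all tested genes as higher and 34.4% as lower.

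The BH3-only proteins sense damage and are the upstream triggers of the mitochondrial route. Bik, a BH3-only protein of the endoplasmic reticulum, gave -6.22, -6.08, -5.82 and -6.13 on the control arrays and -6.27, -6.26, -6.97 and -6.92 on the irisin arrays. The groups did not overlap, although irisin replicates 1 and 2 were only just below the lowest control array. The difference was -0.54 (SE 0.18, adjusted p = 0.0486 by limma). The probe was dim, with a median signal of 7.13 units in control and 7.98 with irisin before scaling, and was well above background on 3 control and 4 irisin arrays. Its adjusted p was under 0.05 in 4 of 20 alternatives, and the difference was near 0 under quantile normalization (-0.0025, adjusted p = 0.995 by limma, in a range from 8.27e-05 to 0.995).

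The other 6 tested BH3-only genes had differences from -0.09 to 0.15 and none had an adjusted p under 0.05. Bcl2l11 encodes BIM, which binds all survival proteins, and had the highest of these, 0.15 (95% interval -0.04 to 0.35), while its second probe gave -0.06. The p53 targets Bbc3, encoding PUMA, and Pmaip1, encoding NOXA, showed -0.05 (95% interval -0.28 to 0.18) and 0.10 (95% interval -0.19 to 0.39). Bid, the substrate of caspase-8, showed 0.08 (95% interval -0.12 to 0.28). Bad, which is controlled by phosphorylation, showed -0.09 and -0.03 on its probes, and Bmf showed 0.11. Hrk was not well above background on any of the 8 arrays and was not tested.

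Among the apoptosome and mitochondrial factors, Apaf1 had the largest difference of any member in the upward direction. Its product is the scaffold that binds cytochrome c and activates caspase-9. The control arrays gave -0.33, -0.21, -0.14 and -0.01 and the irisin arrays gave 0.27, 0.19, 0.53 and 0.26. All 4 irisin values were above all 4 control values. The difference was 0.48 (SE 0.10, 95% interval 0.26 to 0.71, adjusted p = 0.00519 by limma, exact permutation p = 0.0286), or 1.4-fold, which is below the 1.5-fold threshold. Its adjusted p was under 0.05 in all 21 alternatives, with differences from 0.41 to 1.22, and the 8 fits without 1 array gave 0.41 to 0.54.

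None of the genes of its partners had an adjusted p under 0.05. Cycs encodes cytochrome c, and its probe of highest mean signal gave 6.44, 6.21, 6.23 and 6.21 in control and 6.02, 6.16, 6.07 and 6.11 with irisin. The groups did not overlap, yet the difference of -0.18 had an adjusted p of 0.160 by limma and turned to 0.14 under quantile normalization, and the other probes of the gene gave 0.01 and 0.09. Casp9, the caspase of the apoptosome, showed -0.11 (95% interval -0.30 to 0.09). Diablo and Htra2, whose products leave the mitochondrion and neutralise inhibitor of apoptosis proteins, showed 0.09 and -0.18 (adjusted p = 0.490 and 0.203 by limma). Without irisin replicate 2 Htra2 showed -0.25 with an adjusted p of 0.0349 (range 0.0349 to 0.418 over the fits without 1 array).

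The inhibitor of apoptosis proteins bind caspases or ubiquitinate kinases of the TNF receptor complex. Birc3 encodes cIAP2, and it gave -3.01, -2.78, -2.99 and -3.04 on the control arrays and -2.49, -2.68, -2.56 and -2.68 on the irisin arrays. Every irisin value was above every control value. The difference was 0.36 (SE 0.09, adjusted p = 0.0140 by limma, exact permutation p = 0.0286), and the fits without 1 array gave 0.32 to 0.41. It was 0.09 with an adjusted p of 0.460 after normexp background correction, the one of 21 alternatives in which the adjusted p was not under 0.05, with a lowest value of 4.13e-05. The Birc3 probe had a median signal of 63.8 units in control and 135 with irisin before scaling. Birc2, a close relative of Birc3 that encodes cIAP1, gave 0.32, 0.28, 0.11 and 0.14 in control and 0.66, 0.24, 0.62 and 0.49 with irisin. Irisin replicate 2 alone lay among the controls. The difference for Birc2 was 0.29 (SE 0.11, adjusted p = 0.0751 by limma), and 0.38 without irisin replicate 2 (adjusted p = 0.0104, range 0.0104 to 0.189 over the fits without 1 array). After normexp background correction with no array left out, Birc2 was at 0.34 (adjusted p = 0.00659 by limma).

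Xiap encodes the member of this group that inhibits caspases directly. It gave 3.00, 3.15, 2.88 and 2.89 in control and 3.20, 2.20, 3.27 and 2.85 with irisin. Irisin replicate 2 stood well below every other array, and the other 3 irisin arrays spanned the control values. The difference was -0.10 with the widest standard error of the tested members (SE 0.20, adjusted p = 0.789 by limma), and it was 0.13 without irisin replicate 2 (adjusted p = 0.450, the lowest of a range up to 0.932 over the fits without 1 array).

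**Figure D3:**
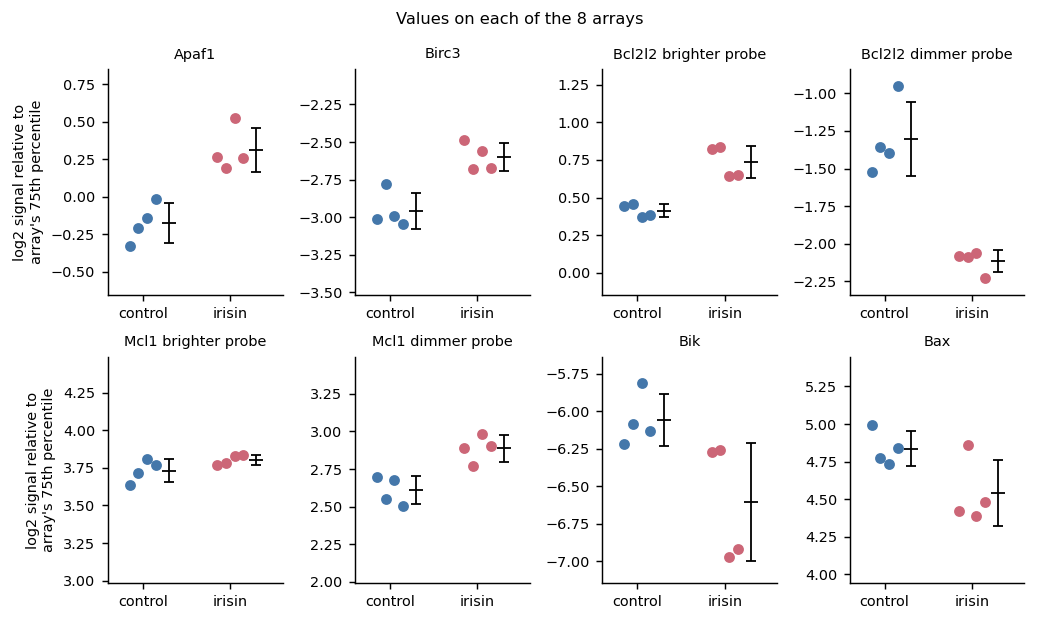
Log2 signal minus the array's 75th percentile, for each of 4 control arrays (blue) and 4 irisin arrays (red), with mean and SD in black. Each panel has its own axis, which spans at least 1.5 log2 units, and levels are not comparable between panels. The groups are apart for Apaf1, Birc3, both Bcl2l2 probes, the dimmer Mcl1 probe and Bik, and irisin replicate 2 lies with the controls for Bax.

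The promoter windows of Apaf1 and Birc3 are shown because these members were higher with irisin and were each measured by 1 probe. Both are RefSeq sequences on build GRCm38.p6, read 5′ to 3′ on the minus strand, upstream of the outermost annotated start of the gene. The Apaf1 window is chr10:91082744-91082993 and the Birc3 window chr9:7873206-7873420. Capitals mark GC boxes.
Apaf1: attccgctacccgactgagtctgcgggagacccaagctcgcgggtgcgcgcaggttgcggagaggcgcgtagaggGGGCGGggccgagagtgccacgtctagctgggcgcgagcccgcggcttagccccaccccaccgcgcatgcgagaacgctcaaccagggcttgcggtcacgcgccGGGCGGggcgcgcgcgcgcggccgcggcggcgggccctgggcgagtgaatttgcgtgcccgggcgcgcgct
Birc3: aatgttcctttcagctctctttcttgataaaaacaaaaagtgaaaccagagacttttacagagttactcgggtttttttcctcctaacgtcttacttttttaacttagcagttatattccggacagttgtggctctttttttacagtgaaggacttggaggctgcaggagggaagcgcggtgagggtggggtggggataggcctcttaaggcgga
The Apaf1 window of 250 bases was 75.6% G and C and the Birc3 window of 215 bases was 44.2%, beside a median of 52.4% over 32851 mouse promoters. The GC box, GGGCGG on either strand, occurred at 2 places in the Apaf1 window and at none in the Birc3 window. A total of 33 members had 46 promoters in the table, of which 27 (58.7%) held a GC box in the 250 bases before the start, and 32.7% of all promoters did. The median G and C content was 59.4% in the member promoters and 52.4% in all promoters. The motif shares given here were not matched for it. The p53 half-site, searched by its consensus, was found in 2 member promoters (4.35%), those of Bax and Bmf, and in 7.13% of all promoters. The consensus of the site bound by NF-κB was found in 4 member promoters (8.70%), of Bbc3, Bcl2l1 and Casp4, and in 3.90% of all promoters. CCAAT was found in 11 member promoters (23.9%, against 33.8% of all) and TATAAA in 2 (4.35%, against 12.4%), and each motif was searched on both strands. A match is a run of letters and no evidence of binding.

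The caspases are the proteases that carry the signal out. Casp8, the initiator of the receptor route, gave 0.99, 0.98, 0.85 and 0.65 on the control arrays and 1.03, 0.78, 0.96 and 0.94 on the irisin arrays. The groups overlapped, and the difference was 0.06 (95% interval -0.16 to 0.28, adjusted p = 0.740 by limma). The 5 tested caspases had differences from -0.11 to 0.06 and none had an adjusted p under 0.05. Casp6, an executioner caspase, showed 0.01 (95% interval -0.18 to 0.20), and Casp2, an initiator caspase, showed -0.03 (95% interval -0.21 to 0.16). The inflammatory caspase gene Casp4 showed 0.01 and -0.03 on its probes. Casp1, which processes interleukin precursors, was well above background on no array, and Casp12 on 2 irisin arrays and no control array, so neither was tested.

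The death receptors carry the extracellular signal into the cell. Fas gave 1.92, 1.87, 1.85 and 1.86 in control and 1.88, 1.68, 1.74 and 1.84 with irisin. The groups overlapped, with the lowest values in irisin replicates 2 and 3, and the difference was -0.09 (95% interval -0.27 to 0.08, adjusted p = 0.459 by limma). Tnfrsf1a, the TNF receptor with a death domain, gave 4.06, 4.02, 4.26 and 4.20 in control and 3.95, 4.20, 4.02 and 4.12 with irisin, and these overlapped as well. Its difference was -0.06 (95% interval -0.27 to 0.14, adjusted p = 0.691 by limma). A second Tnfrsf1a probe gave -0.19 (SE 0.09, adjusted p = 0.152 by limma), and -0.24 without irisin replicate 2 (adjusted p = 0.04996). Tnfrsf1b, the TNF receptor without a death domain, showed 0.03 (95% interval -0.27 to 0.34), and Tnfrsf10b, the mouse receptor for TRAIL, showed -0.07 (95% interval -0.26 to 0.12).

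The adaptors and kinases sit under these receptors. Cflar encodes cFLIP, which blocks caspase-8, and its probe of highest mean signal gave -0.53, -0.80, -0.58 and -0.75 in control and -0.57, -0.61, -0.64 and -0.55 with irisin. The irisin values lay inside the range of the control values, with a difference of 0.07 (SE 0.09, adjusted p = 0.617 by limma). Its other probes gave 0.27 (SE 0.11, adjusted p = 0.117) and -0.16 (SE 0.08, adjusted p = 0.188). The adaptor genes Fadd and Tradd showed 0.02 (95% interval -0.24 to 0.28) and -0.14 (95% interval -0.36 to 0.07). Ripk1, the kinase that chooses between survival and death signals, showed 0.14 (95% interval -0.06 to 0.35), and Ripk3, the kinase of necroptosis, showed 0.04 (95% interval -0.20 to 0.29).

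**Figure D4:**
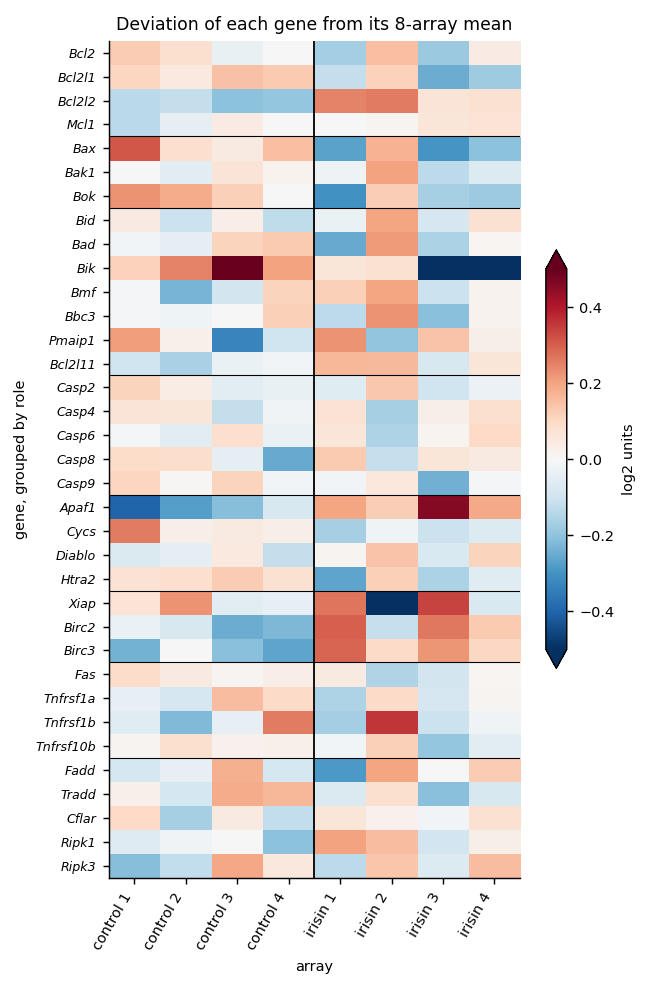
Deviation of each tested member from its own mean over the 8 arrays, in log2 units (red above, blue below, colors end at 0.5), with genes grouped by role and the 4 control arrays left of the line. Most rows show no block of color that follows the groups. Irisin replicate 2 holds the highest irisin value for 21 members (50.5% of all tested genes) and the lowest for 9 (22.7%).

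Few members followed the treatment, as the map of deviations shows, and irisin replicate 2 separated from the other irisin arrays in a way that ran across roles. It gave the highest irisin value for 21 members, among them Bax, Bcl2l1, Bok, Bad and Tnfrsf1b, and the lowest for 9, among them Xiap, Birc2 and Fas. Over all tested genes it gave the highest irisin value for 50.5% and the lowest for 22.7%. When it was left out, 4 members were higher and 5 lower at an adjusted p under 0.05, where the full set of arrays gave 3 and 1. The same criterion without this array took in 5.40% of all tested genes as higher and 21.98% as lower, so the counts rose over all genes as well. Those added were Birc2 among the higher members and Bcl2l1, Bax, Bok and Htra2 among the lower ones. The cause of the deviation of this array was not tested.

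**Figure D5:**
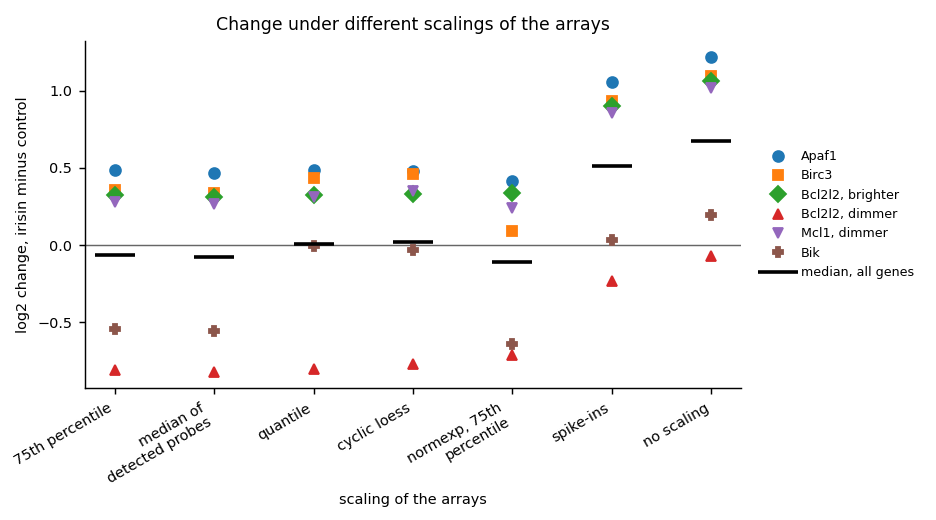
Log2 change between irisin and control under 7 ways of processing the arrays, for each member probe with an adjusted p under 0.05, with the median of all tested genes as a black bar. Apaf1, Birc3, the brighter Bcl2l2 probe and the dimmer Mcl1 probe stay above the bar under each of them. The dimmer Bcl2l2 probe stays below the bar under each of them, while Bik lies at the bar under quantile normalization.

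The 75th percentile, the spike-in reference and the absence of scaling differ by a constant for each array, which shifts every gene alike. The median of the members minus that of all tested genes was therefore bound to agree among them, at 0.07 in each. It was 0.03 under quantile normalization, 0.03 under cyclic loess and 0.10 after normexp background correction.

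A further 59 genes of cell death were listed beside the members, among them relatives of the BNIP and NAIP families, TNF ligands and receptors, and TRAF proteins. Of these, 52 were tested and none was called in either direction by limma with both thresholds or by the ANOVA, with 4 higher and 10 lower at an unadjusted p under 0.05 (background 5.94% and 23.6% of genes). Their changes ran from -0.54 to 0.52 with a median of -0.07. At the adjusted p alone, 3 were higher and 8 were lower, where 2.65% and 17.9% of all tested genes were. The 3 higher genes, picked out after their values were seen, were Parp1, Faim and Ripk2. Parp1, a caspase substrate that senses DNA breaks, gave 0.49 (SE 0.10, adjusted p = 0.00329 by limma). Faim, an inhibitor of FAS-driven apoptosis, gave 0.28 (adjusted p = 0.0387 by limma). Ripk2, a kinase of NOD signaling, gave 0.52 (adjusted p = 0.0429 by limma) with overlapping groups. Its probe was dim, with a median signal of 12.1 units in control and 30.5 with irisin before scaling. Ripk2 gave 0.85 under quantile normalization but -0.27 after normexp background correction (adjusted p = 0.0347 by limma). Parp1 and Faim stayed positive after normexp (0.57 and 0.32). The 8 lower genes, also named after their values were seen, were Casp14, Lta, Bnip2, Mlkl, Tnfsf12, Naip5, Birc5 and Vdac2, with differences from -0.54 to -0.28. Under quantile normalization Mlkl and Tnfsf12 alone kept an adjusted p under 0.05 (0.0164 and 0.0307 by limma). After normexp background correction all but Vdac2 did. Casp14 and Lta turned to 0.05 and 0.06 under quantile normalization. Their probes were dim, with median signals before scaling of 5.40 and 7.87 units in control and 5.84 and 8.98 with irisin. Mlkl, the pore former of necroptosis, gave -0.39 (SE 0.10, adjusted p = 0.0157 by limma), and Birc5, which encodes survivin, gave -0.29 (SE 0.09, adjusted p = 0.0431 by limma) on its probe of highest mean signal and 0.09 and 0.02 on the others. A second Bnip2 probe gave 0.05 (adjusted p = 0.702 by limma), and a second Tnfsf12 probe gave -0.27 (adjusted p = 0.0762 by limma). The groups overlapped for Casp14 and for the Bnip2 probe of highest mean signal.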

How the data were processed

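Cy3-labeled RNA was hybridized by the authors to one-color Agilent arrays, which were read with Agilent Feature Extraction 12.0.3.1, and the deposited values are signal intensities on a linear scale, background-subtracted and not normalized between arrays. A deposited value table held the same intensities to within 0.000500%. Spots marked as outliers were left out (at most 0.463% of an array), no spot was saturated, and spots of a probe were averaged. From the log2 processed signal the 75th percentile of the array was subtracted, with no pseudocount. Accessions were named through the RefSeq table of GRCm38.p6, which matched 28657 of 39429 probes (72.7%).

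Probes that stood well above background throughout 1 group or both were tested with limma 3.58.1 in R 4.3.3 over all 8 arrays, with Benjamini-Hochberg adjustment over the 24091 probes and a threshold of 1.5-fold and an adjusted p under 0.05. A gene was counted by its tested probe of highest mean signal. The fit was tested on simulated data. Named values cover all 38 members by role, with values on each array for members at an adjusted p under 0.05 and for Bcl2l1, Mcl1, Bax, Casp8, Fas, Tnfrsf1a, Cflar and Xiap. Array values of Bok, Birc2 and Cycs were added after they were seen. The members, the lists and the tests were chosen with earlier results of these data known. Alternatives were other scalings, background corrections, filters, thresholds and tests, the replicate number as a block, the mean over a gene's probes and leaving out each array. The normexp correction was run on the median spot signal without spots of uneven local background, at most 40 on an array. The number of arrays limits the precision.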

Additional observations from a re-analysis of the deposited data

Results flagged for a closer look

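Of the 70 sets of 4 arrays checked among the tested members, 2 held 1 array well away from the remaining 3, where about 1 in 20 is the share that chance gives. For Bbc3, control replicate 4 was at 3.05, against 2.90 to 2.92 on the other control arrays. For Cycs, control replicate 1 was at 6.44, against 6.21 to 6.23 on the other control arrays.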

How the results depend on the processing

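Counts are given as up-regulated and down-regulated at 1.5-fold with an adjusted p under 0.05. The members stood at 0 and 0, the other cell death genes at 0 and 0 and all tested probes at 172 and 2814. With normexp 0 and 1 members (Bik), 0 and 3 other cell death genes and 54 and 3641 probes were called. Quantile normalization gave 1 other cell death gene as higher, with 670 and 1021 probes, and cyclic loess gave 2, with 699 and 926 probes. The spike-in reference gave 16 and 0 members, 15 and 0 other genes and 7817 and 362 probes. With no scaling there were 29 and 0 members, 38 and 0 other genes and 14920 and 162 probes, and each of the 17 negative members turned positive, Bad (0.65), Bak1 (0.73), Bbc3 (0.69), Bcl2 (0.66), Casp2 (0.71), Casp9 (0.63), Fas (0.65), Tnfrsf10b (0.67), Tnfrsf1a (0.67), Tradd (0.60) and Xiap (0.64) among those called and Bax (0.44), Bcl2l1 (0.52), Bik (0.20), Bok (0.47), Cycs (0.56) and Htra2 (0.56) without a call. Without the filter on dim probes 1 member (Hrk, with no array well above background) and 2 other genes were called lower, among 184 and 12750 probes. Every alternative for which no count of members is given here left them at 0 and 0. The ANOVA gave 108 and 2592 probes. The adjusted p alone gave 3 and 1 members, 3 and 8 other genes and 712 and 5195 probes, and a 2-fold threshold 23 and 777 probes. Leaving out each array in turn gave 0 members as higher and 0 to 1 as lower (Bik, without irisin replicate 1 or 2), 0 to 1 other genes in each direction, and 103 to 353 and 2662 to 3087 probes. The cause of these shifts was not tested, beyond the scale that the spike-in reference and the absence of scaling set by construction.

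The deviations of same-numbered control and irisin arrays had correlations of 0.11, -0.35, -0.13 and 0.17. The best-correlated partner carried the same number for replicates 1 and 4 and another number for replicates 2 and 3. With 4 arrays per group on separate slides, these values cannot decide whether the numbers pair the samples. With the replicate number as a block, 0 members were called in each direction and 173 and 2830 probes were, and the adjusted p of Bik (0.0659) and of the second Mcl1 probe (0.0769) rose above 0.05, with no representative probe of another member changing sides. Slide could not be fitted as a block, since each slide held 1 group. Dim probes limit Bik, Hrk, Casp1 and Casp12 among the members, and Ripk2, Casp14 and Lta among the other cell death genes named.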
